A study of Acomys cahirinus and Mus musculus with 6 samples.

Results

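FGF2/NRG1 beads were compared with PBS beads in the ear punch wound of the laboratory mouse, cell type by cell type. The members are the cells of the 2 mouse libraries whose deposited cell type held at least 30 cells in both, which kept 8075 of the 39577 cells of the series. They were 5038 of 5104 cells in the FGF2/NRG1 library and 3037 of 3065 in the PBS library, in 15 of 17 cell types. B cells (28 and 14 cells) and dendritic cells (38 and 14) were too few and were left out.

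The series profiled healing ear punches by droplet single-cell RNA sequencing (10x Genomics, 3' chemistry) in 6 libraries, of which 4 came from spiny mice given inhibitors or vehicle and are not used here. Both mouse libraries came from ear pinna skin of the CD1 strain. In the treated group the micro-beads carried recombinant FGF-2 and NRG-1 together, in the control group PBS (phosphate-buffered saline) alone, and in both they were placed at day 10 after injury. For the day of tissue collection, the dose and the number of animals in a library, the sources used here give no value. FGF2 and NRG1 were never given apart, so the share of each in any difference cannot be told apart.

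FGF2 is a ligand of the fibroblast growth factor receptors, and NRG1 (neuregulin) of the ErbB3 and ErbB4 receptors, which signal with ErbB2. Both receptor families switch on the ERK kinase cascade, whose activity is commonly read from its feedback genes such as the phosphatase Dusp6, the Sprouty proteins and the Etv transcription factors. In skin, FGF2 is known for driving growth of vessels and fibroblasts. FGF signals also act on cartilage, where Fgfr3 is among the receptors of chondrocytes.

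Each side was 1 library. No test was therefore possible, and every ratio below compares 2 libraries, not 2 treatments. UMI counts (unique molecular identifiers, that is counted RNA molecules) were summed over the cells of a type, and ratios are log2 ratios of CPM (UMIs scaled to the total of the type), FGF2/NRG1 over PBS. A gene counted as measured in a type from 30 UMIs, both libraries summed, and was called higher or lower at 1.5-fold or more. All intervals are exact 95% intervals and cover counting error only, not differences between animals. The libraries held 30624949 UMIs (FGF2/NRG1) and 22572569 UMIs (PBS), with medians of 3904 and 3852 UMIs per cell, and 4 cell barcodes occurred in both. Both held Xist and Y-linked RNA at like levels (Xist 433 and 469 CPM, Ddx3y 30.4 and 28.3 CPM), so each held cells of both sexes.

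Several genes differed in nearly every type. Gm42418, a transcript that overlaps a ribosomal RNA repeat, made up 0.658% of UMIs with FGF2/NRG1 and 2.18% with PBS, and was lower in 15 of 15 types (median log2 ratio -1.65). AY036118, of the same kind, and the mitochondrial mt-Nd6 and mt-Atp8 were also lower in 15 of 15 types, with medians of -1.49, -1.0 and -0.94. Baiap2l1, a membrane-bending adaptor, was lower in 12 of 12 types in which it was measured. Higher in the most types were Fabp4 (12 of 13), Lgals1 (12 of 14), Spp1 (11 of 12), Fn1 (11 of 15), Hbb-bt (11 of 15), S100a4 (10 of 15), Krt28 (9 of 11) and S100a3 (9 of 12). Free RNA leaks from other cells and is captured in every droplet. In the types where they lay above the level set for it, Fabp4 was higher in 2 of 3 and Lgals1 in 6 of 7. Spp1 was higher there in 4 of 5, Fn1 in 3 of 6 and S100a4 in 5 of 8. Krt28 was higher in 2 of 4 and S100a3 in 3 of 4. Hbb-bt was higher in 10 of 14, but that level is set by the highest type kept, and no red cell type was kept. For Hbb-bt the rule therefore cannot tell free RNA from RNA of the cells. How far RNA quality or free RNA enters the ratios of single types was not tested.

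As a background for the counts of list members below, the genes past 1.5-fold in either direction were 40.5% in chondrocytes, 14.2% in endothelium, 22.5% in T-cells, 24.4% in the cells annotated circulating monocytes, 14.6% in inner root sheath, 14.7% in outer root sheath, 22.1% in resident macrophages, 10.4% in cycling and 8.95% in basal epidermis. In the types described least, 15.7% were higher and 24.5% lower in fibroblasts (40.3% together), 7.32% and 9.76% in hair germ and outer bulge (17.1%), 12.6% and 8.94% in dermal sheath (21.6%), 3.50% and 5.34% in suprabasal epidermis (8.84%), 5.38% and 4.88% in sebaceous gland (10.3%) and 9.88% and 9.07% in the cells annotated Unknown (18.9%).

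The FGF2/NRG1 library held a lower share of epithelial cells. Epidermal, sebaceous and follicle types made up 1703 cells (33.4%) against 1517 cells (49.5%) with PBS, and the named non-epithelial types 2858 cells (56.0%) against 979 (31.9%). Since shares sum to a fixed total, each type was read over all cells and within its own compartment. For non-epithelial types the compartment was taken with the cells annotated Unknown (3401 and 1548 cells) and, as a denominator chosen after seeing the data, over the named types alone.

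Chondrocytes, the cells of the ear cartilage plate, differed most in share. They were 248 cells or 4.86% (4.29 to 5.48) with FGF2/NRG1 and 36 cells or 1.17% (0.824 to 1.62) with PBS, a ratio of 4.14. Resident macrophages followed with 583 and 110 cells, 11.4% (10.6 to 12.3) against 3.59% (2.96 to 4.31). Cells annotated T-cells were 136 and 36, 2.66% (2.24 to 3.14) against 1.17% (0.824 to 1.62). For these 3 types the intervals did not overlap, but this held for most types. Over all cells they overlapped only for the cells annotated circulating monocytes, for hair germ and outer bulge, and for dermal sheath. Within all non-epithelial cells the ratios were 3.14 for chondrocytes, 2.41 for macrophages and 1.72 for T-cells, and over the named types alone 2.36, 1.82 and 1.29.

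For endothelium, fibroblasts and the cells annotated circulating monocytes the direction depended on the denominator. Endothelium was 940 cells or 18.4% (17.4 to 19.5) against 346 cells or 11.3% (10.2 to 12.5) of all cells, and 27.6% (26.1 to 29.2) against 22.4% (20.3 to 24.5) of non-epithelial cells. Over the named types alone it was 32.9% against 35.3%. Fibroblasts were 4.29% against 2.61% of all cells, 6.44% (5.64 to 7.32) against 5.17% (4.12 to 6.39) of non-epithelial cells, with overlapping intervals, and 7.66% against 8.17% of the named ones. The cells annotated circulating monocytes were 12% against 10.0% of all cells, 18.0% (16.7 to 19.3) against 19.8% (17.9 to 21.9) of non-epithelial cells and 21.4% against 31.4% of the named ones. Their FGF2/NRG1 cells were shallow, and among cells of at least 1500 UMIs the log2 ratio of their shares was -2.74 in place of 0.26.

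Among follicle types, the inner root sheath (IRS), the sheath that moulds the growing hair, was 211 cells or 4.13% against 86 cells or 2.81%, and 12.4% against 5.67% of epithelial cells. Hair germ and outer bulge, the stem cell region, was 2.72% against 2.41% of all cells with an odds ratio of 1.13 (0.844 to 1.53), and 8.16% against 4.88% of epithelial cells. The outer root sheath (ORS) was lower over all cells, 1.88% against 3.00%, but 5.64% against 6.06% of epithelial cells. Basal interfollicular epidermis, 6.47% against 12.3%, was the lowest by ratio of shares (0.526).

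**Figure D1:**
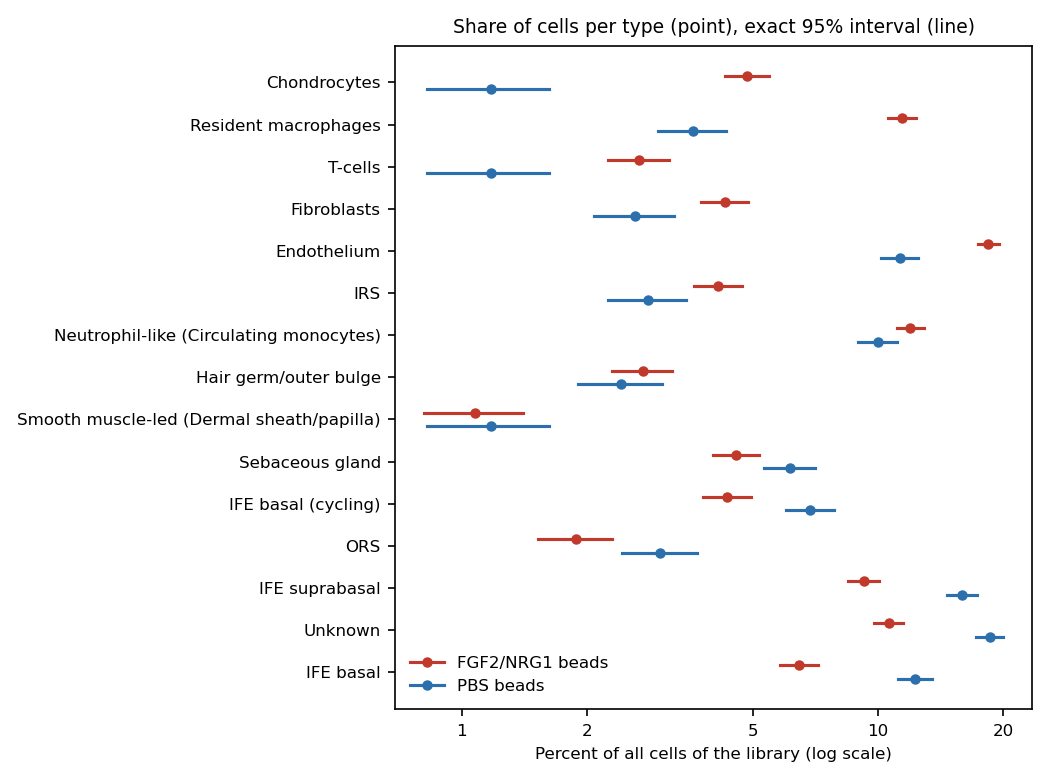
Share of each cell type among all cells of its library (log axis, percent) with exact 95% intervals, FGF2/NRG1 beads in red and PBS beads in blue, types ordered by the ratio of shares. Chondrocytes (4.86% against 1.17%), resident macrophages and T-cells stand apart at the top, and basal epidermis (6.47% against 12.3%) at the bottom.

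The deposited names were checked against marker genes among the top 10 genes by fold of each type. Chondrocytes had 8 cartilage markers there (Col2a1, Acan and Hapln1 among them), and IRS had Krt71, Tchh, Krt25 and Krt27. Cells named circulating monocytes led with 5 neutrophil markers (S100a9, S100a8, Cxcr2, Csf3r, Retnlg) and are called neutrophil-like here. Cells named dermal sheath and papilla led with smooth muscle genes (Acta2, Rgs5, Myh11). Cells named T-cells led with 3 T cell markers (Cd3g, Trdc, Cd3d) and 2 NK cell markers (Gzma, Nkg7). Cluster 2, most of the hair germ and outer bulge type, led with 3 melanocyte markers against 2 bulge markers, and cluster 6, most of the resident macrophages, with 3 dendritic markers against 2 macrophage markers, so both are given by number. The fibroblast type joins cluster 32, with fibroblast markers, to cluster 34, with Schwann cell markers, and only cluster 32 is described.

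In chondrocytes the cartilage matrix, glycolysis and lipid synthesis genes were mostly higher with FGF2/NRG1, whereas fibrillar matrix genes went both ways. Counting error was wide here, since PBS had 340317 UMIs from 36 cells and FGF2/NRG1 2910983 UMIs from 248, with medians of 6289 and 10904 UMIs per cell, and 1 PBS cell held 9.86% of the PBS UMIs. Of 8462 genes measured, 19.0% were higher and 21.5% lower (median of all genes -0.04). This balance depended on scaling. With TMM factors all ratios moved up by 0.23, and 2359 genes were higher and 1128 lower in place of 1610 and 1819.

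Spp1 (osteopontin, a secreted matrix and bone protein, chromosome 5, 104435118 to 104441050 of GRCm38) had 29831 UMIs with FGF2/NRG1 and 6 with PBS, a log2 ratio of 9.13 (8.06 to 10.63). It was seen in 164 of 248 cells (66.1%) and 3 of 36 (8.33%). After thinning each cell to 1500 UMIs, which left 236 and 29 cells, the shares were 53.8% and 3.45%. In basal epidermis, which should lack it, 18.8% and 0.531% of cells had a UMI (5.31% and 0% thinned, median depths 9173 and 12118). The FGF2/NRG1 share in chondrocytes was above that background, and the PBS share rested on 3 cells.

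Spp1 was followed among the 6 highest genes by Mmp3, Slpi, Timp1, Hmga2 and Lcn2. Mmp3 (stromelysin, a protease that cuts matrix, chromosome 9, 7445822 to 7455975) had 3297 UMIs in 107 cells against 0 in 36 PBS cells, at least 128-fold higher. A Mmp3 UMI was seen in 43.1% of FGF2/NRG1 cells (27.1% thinned), and 0 of 36 allows a share of cells with a UMI of up to 8.33% by the floor of 3 cells (9.74% as the exact upper bound). In basal epidermis 17.6% and 28.4% of cells had a UMI (4.69% and 7.92% thinned). Timp1, an inhibitor of such proteases, had 3442 against 22 UMIs (4.18, 3.59 to 4.87). Slpi, an inhibitor of neutrophil elastase, had 4899 against 1 UMI (8.89, 6.68 to 14.47), and Lcn2, an iron-binding defence protein, 645 against 2 (5.10, 3.38 to 8.29). The chromatin protein Hmga2 had 349 UMIs in 86 cells against 0, at least 13.6-fold higher by UMIs, with 0.303% and 0.531% of cells in basal epidermis. Thinned, 11.0% of 236 (7.32 to 15.7) and 0 of 29 cells (0 to 11.9) had a Hmga2 UMI, with overlapping intervals.

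The main structural genes of cartilage were higher. Col2a1, the type II collagen chain (chromosome 15, 97975602 to 98004695), had 17829 UMIs (6125 CPM) against 681 (2001 CPM), a log2 ratio of 1.61 (1.5 to 1.73), and was seen in 230 of 248 against 23 of 36 cells. Thinned, 88.1% and 51.7% of the cells had a Col2a1 UMI, while basal epidermis had 8.18% and 0% before and 1.25% and 0% after thinning. The proteoglycan Acan had 7834 against 301 UMIs (1.60, 1.44 to 1.78) and the link protein Hapln1 3688 against 78 (2.46, 2.14 to 2.81). Epyc, a small proteoglycan, had 311 UMIs in 67 cells against 0, at least 12.1-fold higher.

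Of 20 measured cartilage matrix genes, 11 were higher and 4 lower, with a median of 0.79. The lower ones were Prg4 (lubricin), Clu (clusterin), Chad (chondroadherin) and Fmod (fibromodulin). Chad had 461 against 357 UMIs (-2.72, -2.93 to -2.52) and Clu 476 against 531 (-3.25, -3.44 to -3.07). Prg4 had 386 against 908 UMIs (-4.32, -4.51 to -4.16), of which 541 lay in 1 PBS cell, and without the top cell of each library its ratio was -3.20. Comp (0.07, -0.16 to 0.31) and Cytl1 (-0.23, -0.31 to -0.16), matrix and secreted products of chondrocytes, lay within 1.5-fold.

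Among 9 maturation and breakdown genes, 5 were higher and 1 lower (median 1.59). Col10a1, the collagen of hypertrophic cartilage, had 476 against 10 UMIs (2.45, 1.58 to 3.55). Timp3 was the lower one (4102 against 844 UMIs, -0.82), and without the top cell its ratio was 0.13. The median ran from 0.28, with members of at least 10 UMIs, to 4.93 in thinned cells.

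The transcription factors of the chondrocyte fate did not share a direction, with 2 higher and 2 lower of 8. Sox9, the master factor of cartilage, had 2732 against 199 UMIs (0.68, 0.47 to 0.90) and Runx1 550 against 16 (1.99, 1.29 to 2.82). Zbtb20 had 1061 against 393 (-1.66, -1.83 to -1.49), and the tendon factor Scx 26 against 20 UMIs (-2.64, -3.62 to -1.80).

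Glycolysis and hypoxia genes were higher for 13 of 18 and lower for 2, with a median of 1.2, and the median stayed between 0.97 and 1.48 under every alternative run on it. Pgk1, which makes ATP in glycolysis, had 854 against 25 UMIs (1.99, 1.43 to 2.63). Ldha, which turns pyruvate into lactate, had 2532 against 116 (1.35, 1.08 to 1.63), and Gapdh 2546 against 143 (1.06, 0.81 to 1.31). The glucose transporter Slc2a1 had 109 against 3 UMIs (2.01, 0.50 to 4.39). Lipid synthesis genes were higher for 12 of 18 and lower for 1 (median 1.06, 0.38 when each cell was weighted equally), with Sqle of sterol synthesis at 201 against 3 UMIs (2.89, 1.40 to 5.26) and Acly at 287 against 7 (2.23, 1.2 to 3.59).

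The 24 fibrillar matrix genes split, with 9 higher and 11 lower (median -0.41, and 0.01 without each gene's top cell). Fn1 (fibronectin) had 24618 against 521 UMIs (2.47, 2.34 to 2.59). Col1a1, the collagen chain of dermis and bone, had 790 against 254 (-1.46, -1.67 to -1.25), and the proteoglycan Dcn 2332 against 1053 (-1.95, -2.06 to -1.84). Markers of other types moved with these values. Fibroblast markers summed to 0.538% of UMIs with FGF2/NRG1 and 0.854% with PBS (Mfap5 at 0 in both), and keratinocyte markers to 0.139% and 0.847% (Ivl at 0), while chondrocyte markers summed to 2.86% and 1.62%. Krt14, a basal keratin, had 1024 against 896 UMIs (-2.90). Sex-linked RNA also moved, with Xist at 0.70 (0.46 to 0.94), Ddx3y at 8 against 16 UMIs and Eif2s3y at 7 against 12. The part of these in the ratios was not tested.

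The lowest genes by interval were the secreted protein Msmp (235 against 667 UMIs, -4.59), Prg4, the keratin Krt15 (304 against 698, -4.29), Dpt (14 against 39, -4.41), a dermal matrix protein, Bcl11b (11 against 31, -4.38) and the muscle gene Ttn. All 31 Ttn UMIs came from 1 PBS cell.

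The FGF and ERK readouts in chondrocytes were mixed. Of 12 measured ERK feedback and target genes, 5 were higher and 3 lower (median 0.19, and -0.38 in thinned cells). Dusp6 (chromosome 10, 99263231 to 99267489) had 37 against 2 UMIs (1.04, -0.84 to 4.21), Spry2 100 against 7 (0.72, -0.36 to 2.09) and Etv4 33 against 1 (1.75, -0.63 to 7.29), each with an interval across 0. The early growth gene Ier3 had 528 against 26 (1.24, 0.68 to 1.88), and Etv5 was lower at 101 against 24 (-1.01, -1.68 to -0.32). Among 9 genes of the receptor and ligand list, 6 were higher and 2 lower. The receptors Fgfr1 (396 against 102, -1.14, -1.46 to -0.81) and Fgfr2 (146 against 29, -0.76, -1.35 to -0.14) were the lower ones. Fgfr3 was higher at 807 against 61 (0.63, 0.25 to 1.03), and the EGF receptor ligand Hbegf at 161 against 2 (3.11, 1.36 to 6.29).

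**Figure D2:**
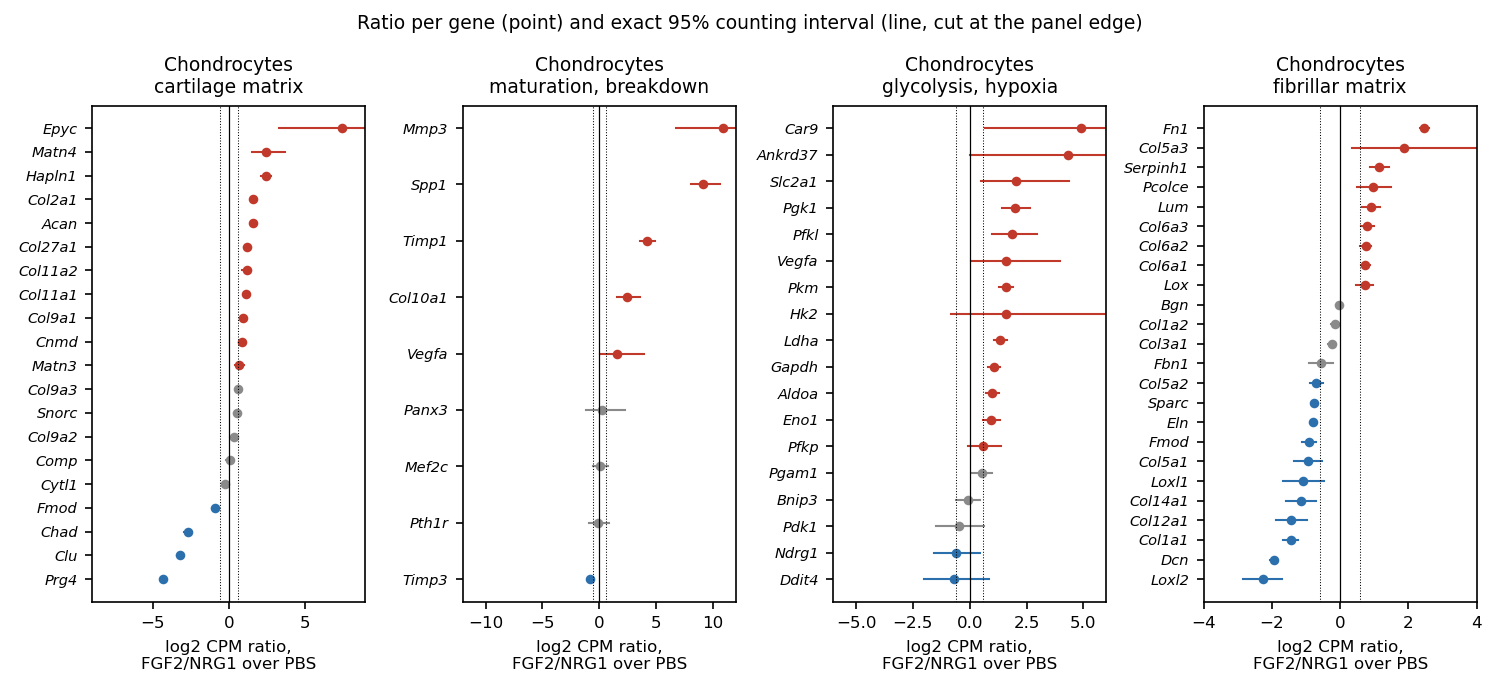
Log2 CPM ratio (FGF2/NRG1 over PBS) of each measured member of 4 gene lists in chondrocytes, with 95% counting intervals; red and blue points are 1.5-fold or more higher or lower, grey within, and dotted lines mark 1.5-fold. Cartilage matrix (11 of 20 higher) and glycolysis genes (13 of 18) lie mostly to the right, and fibrillar matrix genes on both sides (9 higher, 11 lower).

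In endothelium, more cell cycle genes were higher than lower with FGF2/NRG1, and the genes of sprouting tip cells were lower or near level. Of 10539 genes measured, 5.30% were higher and 8.94% lower (median -0.06, with 559 higher and 942 lower, which became 794 and 630 with TMM factors). The type held 3 clusters, 8, 17 and 29, at 49.5%, 26% and 24.6% of its cells with FGF2/NRG1 and 50.9%, 27.5% and 21.7% with PBS. Cluster 8 (465 and 176 cells) carried the venous genes Ackr1, Vwf and Selp among its top 10 genes. Cluster 17 (244 and 95) carried the lymphatic genes Ccl21a, Mmrn1 and Prox1, but also Gja4 and Sema3g of the arterial and capillary list. In cluster 17, markers of another type outnumbered the cell's own in 135 of 244 and 64 of 95 cells. Cluster 29 (231 and 75) led with Col4a1, Col4a2 and Gpihbp1 but with no endothelial marker from the lists, so it is given by number. All 12 endothelial markers did have UMIs in it. They summed to 0.588% and 0.632% of its UMIs, against 0.641% and 0.679% in cluster 8. Median UMIs per cell in cluster 29 were 6576 and 5168.

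Over all endothelium, 14 of 22 measured cell cycle genes were higher and 1 lower (median 0.88). Among the 12 above the level of free RNA, 6 were higher and 1 lower (median 0.61). In cluster 29, 8.53% of 7606 genes were higher and 11.4% lower, while 16 of 19 cell cycle genes were higher and 0 lower, with a median of 1.25. There Mki67, a protein of dividing cells (chromosome 7, 135689784 to 135716361), had 184 against 27 UMIs (1.04, 0.47 to 1.69). The topoisomerase Top2a had 129 against 7 (2.41, 1.40 to 3.83) and the mitotic ubiquitin enzyme Ube2c 104 against 5 (2.56, 1.39 to 4.32). The median ran from 1.14 to 2.19 under the alternatives.

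Counted by cells, Mki67 was seen in 52 of 231 cells of cluster 29 (22.5%, 17.3 to 28.4) and 11 of 75 (14.7%, 7.56 to 24.7), with overlapping intervals. Thinned to 1500 UMIs the shares were 11.1% of 226 and 1.59% of 63 cells, the latter 1 cell. Neutrophil-like cells, a type that does not divide once mature, had 2.13% and 6.84% (5.56% and 5.99% thinned, depths 1107 and 1708), with thinned intervals of 1.16 to 15.4 and 3.23 to 10.0. The thinned cluster 29 shares (7.29 to 15.9 and 0.0402 to 8.53) overlapped these intervals in both libraries, so by share of cells neither was separated from background. In cluster 8, 4 of 12 cell cycle genes were higher and all 4 were at the level of free RNA (8.03% of its genes were higher and 8.24% lower).

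Of 22 angiogenic receptors and tip cell genes in endothelium, 0 were higher and 9 lower (median -0.20, and -0.05 in thinned cells). Apln, the apelin peptide made by tip cells (chromosome X, 48025146 to 48034853), had 353 against 328 UMIs (-1.47, -1.69 to -1.25). The notch ligand Dll4 had 109 against 62 (-0.76, -1.23 to -0.29), Cxcr4 50 against 33 (-0.96, -1.64 to -0.30) and the tip cell proteoglycan Esm1 39 against 25 (-0.91, -1.70 to -0.15). The main VEGF receptors lay within 1.5-fold, with Kdr at 1333 against 466 (-0.06, -0.21 to 0.09) and Flt1 at 1720 against 647 (-0.17, -0.30 to -0.03). In cluster 29, 6 of 20 were lower and 1 higher. Apln there had 244 against 263 UMIs (-1.82, -2.08 to -1.57), but 70 of the PBS UMIs lay in 1 cell (-1.48 without top cells), and the shares of cells, 30.7% and 37.3%, overlapped in their intervals (24.9 to 37.1 and 26.4 to 49.3; 15.9% and 27% thinned). Neutrophil-like cells had 0.655% and 0%.

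Venous adhesion genes, through which leukocytes enter tissue, were higher in cluster 29 for 6 of 12 and lower for 0 (median 0.57). Ackr1, the chemokine receptor of venules (chromosome 1, 173331886 to 173333750), had 176 against 6 UMIs (3.06, 2.01 to 4.62), in 60 of 231 cells (26%, 20.4 to 32.1) against 4 of 75 (5.33%, 1.47 to 13.1), and 12.4% against 1.59% thinned. In neutrophil-like cells 0.818% and 0.651% had an Ackr1 UMI. Selp, the P-selectin that slows rolling leukocytes, had 354 against 44 (1.28, 0.84 to 1.78), Lrg1 1319 against 195 (1.04, 0.82 to 1.27) and Vcam1 54 against 2 (2.78, 1.12 to 6.12). Across all endothelium only 3 of 13 were higher and 1 lower, and Ackr1 itself was at 0.21 (0.10 to 0.33).

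Arterial and capillary genes stayed mostly level in all endothelium, with 1 of 16 higher and 2 lower. The lower ones were Gpihbp1, the capillary anchor of lipoprotein lipase (584 against 471, -1.27, -1.45 to -1.09), and Bmx (210 against 122, -0.79). In cluster 29, 7 of 11 TGF-beta target genes were lower and 0 higher (median -0.83, but -0.03 in thinned cells).

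Interferon response genes, the antiviral programme, were higher in cluster 8 for 9 of 15 and in cluster 17 for 4 of 10, and lower for 0 in both (medians 0.65 and 0.51). In cluster 29 2 of 15 were higher and 4 lower (median -0.07). The background of higher genes was 8.03% in cluster 8 and 9.49% in cluster 17, where 7.91% were lower. In cluster 8, Ifit3 had 39 against 2 UMIs (2.33, 0.63 to 5.68) and Irf7, a transcription factor of the response, 63 against 9 (1.06, 0.09 to 2.30). In cluster 17, Ifi27l2a had 157 against 12 (2.87, 2.10 to 3.93).

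The ERK list shared no direction in endothelium, with 1 of 11 higher (Phlda1, at the level of free RNA) and 3 lower (median -0.13). Dusp6 had 165 against 50 UMIs (0.14, -0.32 to 0.63) and Spry2 29 against 13 (-0.40, -1.41 to 0.65). Spry4 had 20 against 19 (-1.44, -2.48 to -0.52) and the cell cycle entry gene Ccnd1 872 against 491 (-0.75, -0.91 to -0.59). Immediate early genes, which dissociation can induce, were lower for 5 of 14 and higher for 0 (median -0.49), with Fos at 43 against 52 UMIs (-1.82, -2.47 to -1.24) and Egr1 at 92 against 86 (-1.47, -1.92 to -1.04). This was not particular to endothelium. Above free RNA and with at least 3 members, the list's median was negative in every type, from -0.02 in cycling epidermis to -1.70 in fibroblasts. Btg2 was lower in 12 of 13 types, Fos in 7 of 8 and Dusp1 in 8 of 11.

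The genes with the highest lower bounds in endothelium included some of other cell types. Ccl5, a T and NK cell chemokine, had 122 against 1 UMI, 82 of them in 1 cell. Lyz2, a myeloid lysozyme, had 351 against 17 (2.75) and Acta2, smooth muscle actin, 310 against 20 (2.35) in 32 and 14 cells. Nts (neurotensin) had 139 against 8 UMIs in 17 and 4 cells, and in cluster 29 113 UMIs in 10 cells against 0 in 75, at least 11.5-fold higher. Lce1a2 (39 against 0) and Trim5 (58 against 2) completed the set. Among the lowest were Gm42418, AY036118, Prnd (90 against 174, -2.51, -2.91 to -2.15), a prion-like protein, Clmn (13 against 34, -2.83) and the lymphatic receptor Lyve1 (58 against 83, -2.07, and -0.30 without cells whose markers of another type outnumbered their own).

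**Figure D3:**
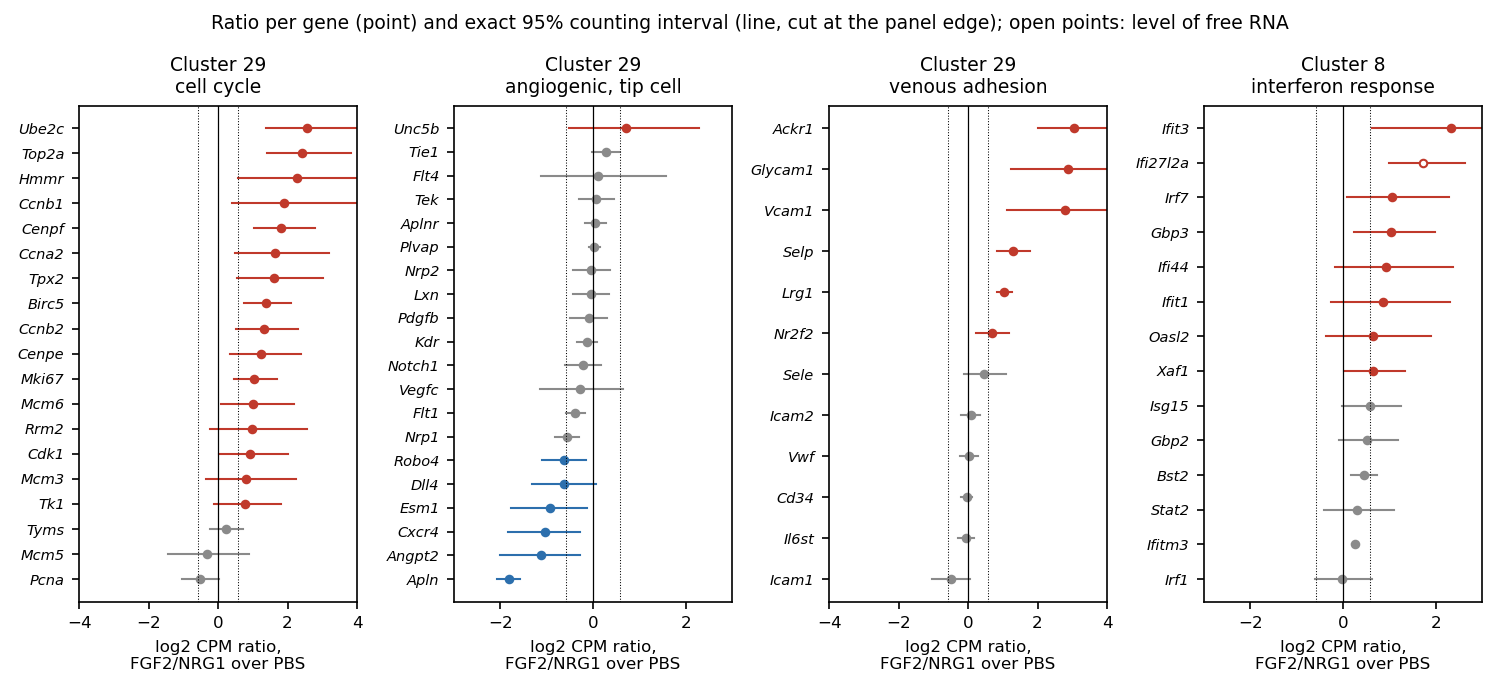
Log2 CPM ratio (FGF2/NRG1 over PBS) with 95% counting intervals for the measured members of 3 lists in endothelial cluster 29 and of the interferon list in cluster 8; red and blue points are 1.5-fold or more higher or lower, open points are at the level of free RNA, and 1 interferon gene is not drawn. Cell cycle genes lie to the right (16 of 19 higher), Apln is the lowest tip cell gene (-1.82) and Ackr1 the highest venous gene (3.06).

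Among lymphocytes, 5 of 10 measured activation and effector genes were higher and 2 lower (median 0.49), and the granzymes Gzmb and Gzma were among the higher genes. The type held 329920 UMIs from 136 cells and 116317 UMIs from 36 cells, with medians of 2308.5 and 3114.5, and 2436 genes were measured, 13.5% of them higher and 9.03% lower (median 0.03). Gzmb, the granule protease granzyme B (chromosome 14, 56258838 to 56262260), had 86 UMIs with FGF2/NRG1 and 0 with PBS, at least 10.1-fold higher. It was seen in 23 of 136 cells (16.9%, 11.0 to 24.3) and 0 of 36, which allows a share of cells with a UMI of up to 8.33% by the floor of 3 cells (9.74% as the exact upper bound). Thinned, it was seen in 14.5% of 124 (8.84 to 22.0) and 0 of 36 cells (0 to 9.74), with overlapping intervals. In basal epidermis 0.303% and 0% of cells had a UMI (depths 9173 and 12118).

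Gzma, the other main granzyme, had 791 against 116 UMIs (1.26, 0.98 to 1.56), in 30 of 136 cells (22.1%) and 5 of 36 (13.9%), against 0.606% and 0% in basal epidermis. The pore protein Prf1 had 84 against 11 (1.39, 0.52 to 2.49), the granule protein Nkg7 395 against 76 (0.87, 0.52 to 1.25) and Ccl5 1629 against 215 (1.42, 1.21 to 1.63). The natural killer receptor Ncr1 had 144 against 24 (1.06, 0.45 to 1.77), while Cd3e (147 against 61, -0.23, -0.68 to 0.22) and Cd3g (306 against 137, -0.34, -0.64 to -0.04) of the T cell receptor lay within 1.5-fold. NK markers summed to 0.51% and 0.254% of the UMIs of the type and T cell markers to 0.504% and 0.606%. More NK cells in the mix and more of these RNAs per cell cannot be told apart in these sums.

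The lower activation and effector genes were the T helper factor Gata3 (21 against 18, -1.22, -2.26 to -0.29) and the costimulatory receptor Icos (45 against 25, -0.64, -1.39 to 0.11). Resting and homing genes had 2 higher and 1 lower of 11 (median -0.21). Ly6a, a surface protein raised in activated lymphocytes, was among the 6 highest (148 against 6, 3.01, 1.96 to 4.59). S100a9 (146 against 2) and S100a8 (94 against 3) were too, and these are neutrophil genes with 62 and 48 of the UMIs in 1 cell. Neutrophil markers summed to 0.104% and 0.0249% there, with Ly6g, Mmp8, Ngp, Camp and Ltf at 0, and their part in the ratios was not tested.

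In neutrophil-like cells, activation and oxidative stress genes were lower with FGF2/NRG1 and granule genes level. The FGF2/NRG1 cells were shallower, with a median of 1107 UMIs in 611 cells against 1708 in 307, and 54 and 217 cells reached 1500 UMIs. Markers of another type outnumbered the cell's own, neutrophil markers included, in 242 of 611 and 175 of 307 cells. Of 4673 genes measured, 15.8% were higher and 8.60% lower (median 0.11). With TMM factors, which lowered all ratios by 0.12, 514 were higher and 578 lower in place of 738 and 402.

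Of 25 activation and cytokine genes, 0 were higher and 14 lower (median -0.74, and -0.21 in cells of at least 1500 UMIs thinned to that depth). The chemokine Cxcl2 (chromosome 5, 90903871 to 90905938) had 1060 against 1646 UMIs (-1.02, -1.13 to -0.91) and Cxcl3 100 against 233 (-1.59, -1.96 to -1.26). The endotoxin receptor Cd14 had 1730 against 3110 (-1.23, -1.32 to -1.15) and the IL-1 receptor antagonist Il1rn 289 against 497 (-1.16, -1.38 to -0.95). Il1b itself had 3006 against 2891 (-0.33, -0.40 to -0.25), and Ccl3 (0.03) and Tnf (0.52, -0.06 to 1.15) were also within 1.5-fold. Il1f9, an IL-1 family cytokine, was seen in 9.0% and 39.4% of cells (18.5% and 40.6% thinned), against 0.106% and 0.867% of endothelial cells.

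Of 12 metallothionein and oxidative stress genes, 0 were higher and 8 lower, with a median of -1.01 that ran from -1.16 to -0.76 under the alternatives. Slc7a11, the cystine importer (chromosome 3, 49892526 to 50443614), had 172 against 625 UMIs (-2.24, -2.50 to -2.0). It was seen in 100 of 611 cells (16.4%, 13.5 to 19.5) and 173 of 307 (56.4%, 50.6 to 62.0), and after thinning in 27.8% of 54 and 64.1% of 217 cells. T-cells had 0.735% and 2.78%. Hmox1, heme oxygenase (chromosome 8, 75093621 to 75100589), had 64 against 211 (-2.09, -2.53 to -1.70), in 7.69% and 22.5% of cells, with 0 of 54 and 50 of 217 cells after thinning and 0% in T-cells of both libraries. Nqo1 had 6 against 49 (-3.19, -4.93 to -2.19) and Srxn1 20 against 54 (-1.76, -2.64 to -1.05), whereas the peroxidase Gpx1 (0.48) and the metallothionein Mt1 (0.33) lay within 1.5-fold.

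Of 11 measured granule and maturation genes, which mark neutrophil identity, 0 were higher and 0 lower (median 0.21). Cxcr2 had 1289 against 746 UMIs (0.40, 0.27 to 0.54) and Csf3r 1015 against 768 (0.02, -0.12 to 0.15), and neutrophil markers summed to 7.57% and 7.54% of UMIs. Interferon genes were higher for 5 of 10 and lower for 0 (median 0.56), with Ifit1 at 44 against 2 (3.59, 2.14 to 7.16) and Rsad2 at 48 against 18 (1.0, 0.22 to 1.90). The 4 measured MHC class II genes were all higher (median 1.26), with H2-Eb1 at 96 against 18 (1.98, 1.29 to 2.84), 1 of them at the level of free RNA. Flg, a filaggrin of the upper epidermis (84 against 1), and Col2a1 (37 against 0) were among the 6 highest genes. These are RNAs of keratinocytes and chondrocytes, and IRS markers summed to 0.23% and 0.0622% here. The part of free RNA was not tested.

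**Figure D4:**
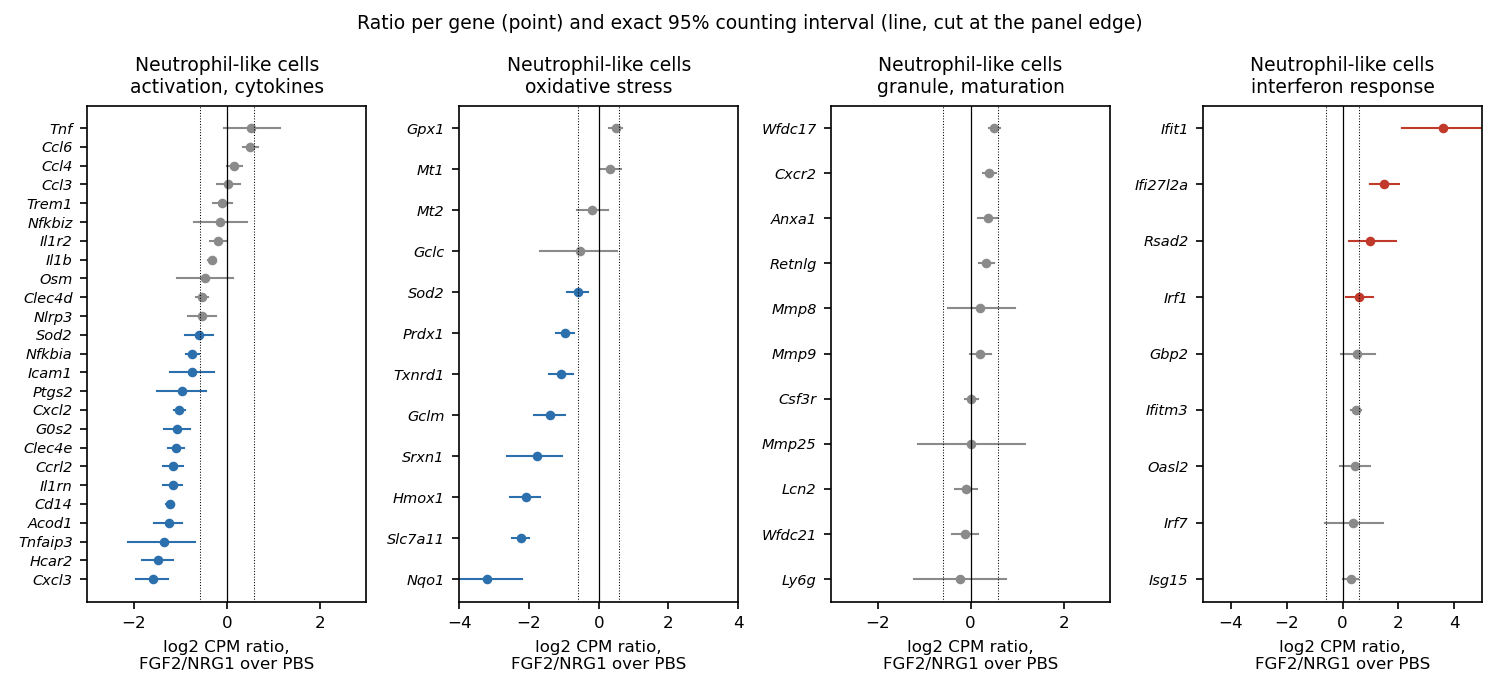
Log2 CPM ratio (FGF2/NRG1 over PBS) with 95% counting intervals for the measured members of 4 lists in neutrophil-like cells; red and blue points are 1.5-fold or more higher or lower, grey within, and 1 interferon gene is not drawn. Activation (14 of 25) and oxidative stress genes (8 of 12) lie to the left, granule genes near 0 (median 0.21) and interferon genes to the right (5 of 10 higher).

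In the IRS, 1 cell carried most UMIs of the highest genes. The 6 genes with the highest lower bounds were Gm10229, Krtap16-3, Krtap22-2, Krtap3-1, Krt84 and Krtap3-2, keratin-associated proteins and a hard keratin of the shaft. Of their 2799 UMIs with FGF2/NRG1, 2616 (93.5%) lay in 1 cell of 18518 UMIs. Over the family, 21 of 28 keratin-associated protein genes were measured, 16 higher and 2 lower (median 5.17), in a type where 6.44% of 8200 genes were higher and 8.15% lower. Without each gene's top cell 14 were higher and 1 lower, with a median of 1.14. The hair shaft keratins did not share a direction, with 5 of 13 higher and 5 lower (median 0.19), and 3 higher and 5 lower (median -0.26) without top cells.

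Of the 6 measured IRS keratins, 1 was higher and 0 lower (median 0.39). Without each gene's top cell 3 were higher (Krt27, Krt71 and Krt72) and 0 lower, with a median of 0.53. Krt71 (chromosome 15, 101733949 to 101743109) had 73704 against 29825 UMIs (0.47, 0.45 to 0.49), Krt25 52403 against 23023 (0.35) and the sheath protein Tchh 58658 against 30141 (0.12). Krt72 (chromosome 15, 101776172 to 101786460), the keratin of the sheath cuticle, was higher at 185 against 12 (3.04, 2.27 to 4.09) in 8 and 3 cells. Of 20 hair growth genes, 2 were higher and 4 lower (median 0.23). Wnt10b, a Wnt ligand of growing follicles, had 32 against 8 (1.10, 0.02 to 2.49), and the transcription factor Sox21 139 against 181 (-1.21, -1.55 to -0.89). The ligand Areg, which binds the EGF receptor, had 176 against 33 (1.56, 1.04 to 2.16). Hmox1 (85 against 260, -2.43) and Tchhl1 (439 against 1114, -2.18) were among the lowest, but without the deepest 5% of cells their ratios were 1.61 and 4.05, and 1100 of the 1114 Tchhl1 UMIs lay in 1 PBS cell.

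In the ORS, 6.17% of 5576 genes were higher and 8.57% lower. Krt71, Krt25, Krt27 and Tchh were 4 of its 6 highest genes, Krt71 with 1267 against 101 UMIs (4.19, 3.91 to 4.51). Of these Krt71 UMIs, 22.0% with FGF2/NRG1 and 76.2% with PBS lay in 1 cell of the library. The share of ORS cells with a Krt71 UMI was 56.3% and 19.6% (23.4% and 7.23% thinned, medians of 6484 and 10561 UMIs), and that of endothelial cells, which make no hair keratin, 50.2% and 19.9% (22.4% and 10.2% thinned). By share of cells the ORS thus lay near the endothelial background. By level it was above endothelium, as inner root sheath markers summed to 0.714% of ORS UMIs with FGF2/NRG1 and 0.0628% with PBS, against 0.0538% and 0.0247%. Other types had more than endothelium, with 0.23% and 0.0622% in neutrophil-like cells and 1.19% and 0.233% in the cells annotated Unknown. The PBS level of the ORS was thus near that of neutrophil-like cells. The source of these RNAs in the ORS was not tested. The sheath's own keratins Krt79 (0.22) and Krt17 (0.44) were within 1.5-fold. Lower were Fmo5 (3 against 57, -3.38), a monooxygenase, and Tppp3 (48 against 228, -1.67, -2.17 to -1.24), a microtubule protein. Krt16, the keratin of wounded epidermis, had 13 against 128 (-2.67), 113 of them in 1 PBS cell, and was at -0.32 without top cells.

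Cluster 2 kept its bulge genes level. Of 19 outer bulge and stem cell genes, 1 was higher and 2 lower (median 0.05), where 7.45% of 5090 genes were higher and 10.1% lower. The stem cell factors Lhx2 (266 against 170, 0.02, -0.26 to 0.30), Sox9 (0.15) and Lgr5 (169 against 112, -0.03, -0.39 to 0.32) lay near 0, and the BMP and Wnt inhibitor Sostdc1 was lower at 379 against 388 (-0.66, -0.87 to -0.45). Spry2, an ERK feedback gene, was higher at 26 against 6 (1.38, 0.18 to 3.06). The highest genes were pigment cell genes carried by a few cells, Mlana with 158 UMIs in 3 cells against 2 in 2 cells and Pmel with 119 against 10. In the hair germ type 4 of 139 and 3 of 74 cells had 2 or more melanocyte UMIs.

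Growing-hair genes were higher in the cells annotated cycling basal epidermis, a list chosen for mention after its values were seen. There 11 of 20 hair germ and growth phase genes were higher and 1 lower (median 0.67), against 5.57% and 4.85% of 9281 genes. The hedgehog ligand Shh had 32 against 12 UMIs (1.46, 0.54 to 2.63) in 7 and 3 cells. The matrix factors Msx2 (117 against 56, 1.17, 0.72 to 1.67; 35 and 19 cells) and Lef1 (91 against 55, 0.84, 0.35 to 1.36) were higher too. With the clusters of the type weighted as in PBS the median was 0.18 and Lef1 was at 0.12, so the ratio moved with the mix of clusters.

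Cluster 32, the fibroblasts, had many genes past 1.5-fold, with 24.7% of 7527 genes higher and 23.2% lower (1861 and 1750, which became 2663 and 1101 with TMM factors that raised all ratios by 0.27). PBS had 208802 UMIs from 32 cells, 7.80% of them in 1 cell, and FGF2/NRG1 1897751 from 153, with medians of 4203 and 11177. Spp1 was again the highest gene, 9991 against 14 UMIs (6.27, 5.55 to 7.17), followed by Hmga2 (461 against 2). Of 24 fibrillar matrix genes, 21 were lower and 1 higher (median -1.25). Col1a1 had 6110 against 3866 (-2.52, -2.58 to -2.47), Col3a1 8236 against 4581 (-2.34, -2.39 to -2.29) and the higher one, Fn1, 15461 against 750 (1.18, 1.08 to 1.29). Cell cycle genes were higher for 16 of 20 and lower for 0 (median 1.48, and 0.61 without the deepest 5% of cells), and ribosomal protein genes for 20 of 22. Of 10 ERK genes 5 were higher and 1 lower (median 0.70), with Ccnd1 at 551 against 16 (1.91, 1.21 to 2.74) and Dusp6 at 40 against 2 (1.07, -0.81 to 4.23). Cells with more markers of another type numbered 42 of 153 and 9 of 32, and fibroblast markers summed to 1.64% and 7.05% of UMIs. Keratinocyte markers summed to 0.211% and 0.561% and neutrophil markers to 0.0069% and 0.138% (Ly6g, Ngp and Camp at 0), and S100a8 and S100a9 were among the 6 lowest genes. Their part was not tested, and without those cells the median of the cartilage list turned from 1.60 to -0.66.

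Cluster 6, of macrophage and dendritic markers, had 12 of 19 interferon genes higher and 6 of 7 MHC class II genes lower, where 13.8% of 8446 genes were higher and 7.66% lower. The chemokine Ccl8 (chromosome 11, 82115185 to 82116799) had 851 UMIs in 31 of 566 cells against 0 in 107, at least 75.7-fold higher by UMIs. By share of cells this was 5.48% (3.75 to 7.68) against 0% (0 to 3.39). Thinned, 4.12% (2.60 to 6.17) and 0% (0 to 3.66) overlapped in their intervals. In basal epidermis 1.82% and 0% of cells had a Ccl8 UMI. Folr2, the folate receptor of tissue macrophages, had 137 UMIs in 77 cells against 0, at least 12.2-fold higher, and Ccl12 142 against 0. Of 10 chemokines that attract monocytes and lymphocytes, 5 were higher and 0 lower (median 1.17), 2 of the 10 at the level of free RNA. Ccl24, a chemokine outside that list, was among the 6 lowest genes with 99 against 155 UMIs (-2.53, -2.93 to -2.18), 78 of the PBS UMIs in 1 cell, and its ratio was -0.01 without cells with more markers of another type. Of 19 interferon genes, 12 were higher and 0 lower (median 1.08), with Rsad2 at 478 against 14 (3.15, 2.43 to 4.07) and Cxcl10 of the chemokine list at 192 against 5 (3.25, 2.11 to 5.00). Of 7 MHC class II genes, 6 were lower and 0 higher (median -0.70), with Cd74 at 15672 against 7107 (-0.77, -0.81 to -0.72). Siglech and Ccr9, genes of plasmacytoid dendritic cells, were among the higher ones, Siglech with 686 against 29 UMIs in 59 and 2 cells. Cells with more markers of another type numbered 270 of 566 and 75 of 107. Dendritic markers summed to 0.952% and 1.61% and macrophage markers to 1.16% and 1.05%. Inner root sheath markers summed to 0.0579% and 0.259%, and Tchh was among the 6 lowest genes. The part of the cell mix and of these RNAs in the ratios was not tested.

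ERK feedback and target genes did not move one way across types. Beside the types above, basal epidermis had 2 of 10 higher and 0 lower (3.59% and 5.36% of its genes), with Etv5 at 29 against 26 UMIs (0.74, -0.04 to 1.59) and Dusp6 at 32 against 28 (0.78, 0.03 to 1.59) at the level of free RNA. In resident macrophages 1 of 8 was higher and 2 lower (13.9% and 8.13%), with Dusp6 at 161 against 69 (-0.68, -1.10 to -0.26). In neutrophil-like cells 2 of 4 were higher and 1 lower, with Dusp6 at 82 against 38 (0.71, 0.15 to 1.32). Above the level of free RNA and with at least 3 members, the list's median ran from -0.43 in the IRS to 0.37 in neutrophil-like cells. The IRS value was 0.19 without the deepest 5% of cells.

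**Figure D5:**
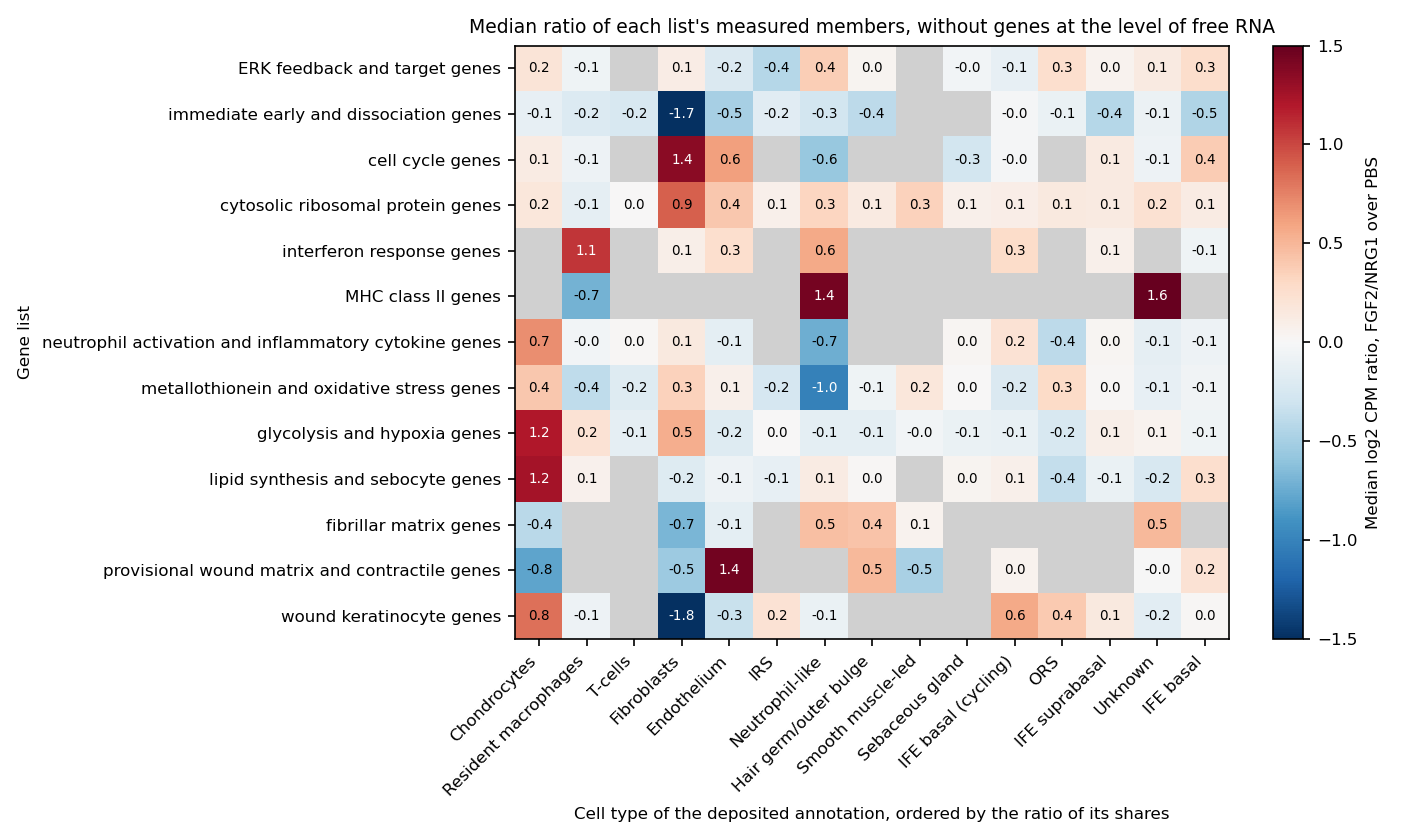
Median log2 CPM ratio (FGF2/NRG1 over PBS) of 13 gene lists in 15 cell types, over measured members above the level of free RNA; grey cells have fewer than 3 such members and colours saturate at 1.5 in either direction. The ERK row stays pale (-0.43 to 0.37), glycolysis stands out in chondrocytes (1.2), oxidative stress in neutrophil-like cells (-1.01) and interferon in resident macrophages (1.08).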

How the data were processed

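The deposited tables held whole-number UMI counts for 20381 genes in 39577 cells and, per cell, library, cluster, cell type and the percent of UMIs from mitochondrial genes, as the authors deposited them per the file headers. Cell Ranger 6.1.1 and the build GRCm38 (mm10) are named in the submitters' processing notes, and no source used here states the filters on cells. Cells were released with a Bacillus licheniformis protease and a Dounce homogeniser, with lysis of red cells, per the labels. No doublet caller was run; an alternative left out cells with more markers of another class than of their own.

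Counts were summed per library and type (Python 3.11.15, numpy 2.4.6, scipy 1.17.1, pandas 2.3.3), with 1 UMI scaled to each total added before the log2 ratio of CPM. Ratio intervals are exact conditional binomial and share intervals Clopper-Pearson, both 95%. A count of 0 was bounded by a floor of 3 UMIs or cells. A fold bound from this floor counts UMIs as independent, also where few cells held them. A gene was at the level of free RNA when, in each library, it was under 3 times the median of other types and more than 10-fold under the highest type. TMM (edgeR 4.0.16) and DESeq2 1.42.0 factors served only as alternative scalings. Members, the 34 gene lists, 23 marker lists and tests were chosen with earlier results of these data known. Named by rule were the 6 genes per direction with the interval bound farthest from 0, up to 4 members per list, Dusp6, Spry2, Spry4, Etv4, Etv5, Xist, Ddx3y, Eif2s3y and genes shared by most types; further list members were named after their values were seen. Clusters were described by number after their markers were seen.

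The code was tested on simulated Poisson counts of the summed libraries, with no spread between cells or libraries and no free RNA. The rates below thus cover counting error only and are not error rates of the real comparisons. In simulated endothelium (10472 genes) 89.7% of 97 genes changed 2-fold and 100% of 92 changed 4-fold were called, and 6.51% of unchanged genes. In simulated chondrocytes (8373 genes) the values were 75.9% of 83, 100% of 81 and 21.1%. Coordinates come from GENCODE vM21 on GRCm38. Figures were drawn with matplotlib 3.10.9. Some genes that the rule or lists would name are not reported here; they stay in the counts and medians.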

Additional observations from a re-analysis of the deposited data

Results flagged for a closer look

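The neutrophil activation and inflammatory cytokine list had a median log2 ratio of 0.70 in chondrocytes and -0.74 in neutrophil-like cells, over members above the level of free RNA, so the list leaned in opposite directions in these 2 types; the difference itself was not tested. The chondrocyte value was 0.12 in thinned cells with all members.

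The arterial and capillary list had a median of 0.63 in the smooth muscle-led dermal sheath type and -0.72 in fibroblasts, also over members above the level of free RNA and also not tested.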

How the results depend on the processing

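Of the alternatives, 1370 of 1389 values for named genes, 633 of 696 list medians, 29 of 52 shares of cells and 256 of 297 percentages of genes past 1.5-fold stayed within the tolerance set for each. A minimum of 10 UMIs raised the percentage past 1.5-fold to 33.8 in dermal sheath, 26.6 in hair germ, 14.8 in basal and in suprabasal epidermis, 16.9 in cycling epidermis, 21.9 in IRS, 24.2 in ORS, 17.4 in sebaceous gland, 36 in T-cells and 29.1 in unnamed cells. A minimum of 100 UMIs lowered it to 7.38 in endothelium, 6.44 in hair germ, 3.75 in basal, 4.34 in cycling and 3.97 in suprabasal epidermis, 7.34 in IRS, 5.36 in ORS, 13.9 in macrophages, 3.57 in sebaceous gland, 8.42 in T-cells and 9.38 in unnamed cells. Thinned cells gave 14.7 in basal, 16.3 in cycling and 13.5 in suprabasal epidermis, 17.3 in sebaceous gland and 29.8 in unnamed cells. The mean over cells gave 26.5 in hair germ, 27.1 in cycling and 16.8 in suprabasal epidermis, 25.8 in ORS and 32.5 in sebaceous gland.

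With epithelial or non-epithelial cells as the denominator, the log2 ratio of shares was -0.14 for neutrophil-like cells (0.26 over all cells), 0.31 for endothelium, 0.32 for fibroblasts, 0.74 for hair germ, -0.36 for basal, -0.094 for cycling and -0.22 for suprabasal epidermis, 1.13 for IRS, -0.11 for ORS, 1.27 for macrophages, 0.14 for sebaceous gland and -1.20 for unnamed cells. Over the named non-epithelial cells, a denominator chosen after seeing the data, it was 1.24 for chondrocytes, -0.55 for neutrophil-like cells, -0.93 for dermal sheath, 0.86 for macrophages and 0.37 for T-cells, and it turned to -0.10 for endothelium and -0.093 for fibroblasts. With cells of at least 1500 UMIs only, neutrophil-like cells were at -2.74. Without cells with more markers of another type it was 0.78 for neutrophil-like cells, 1.12 for endothelium and 2.51 for macrophages, and the cartilage list of cluster 32 turned to -0.66.

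In IRS, leaving out the deepest 5% of cells turned Tchhl1 to 4.05 and Hmox1 to 1.61, and leaving out each gene's top cell, an alternative chosen after seeing the data, turned Tchhl1 to 2.78 and Krtap22-2 to -1.26. With TMM factors the split of higher and lower genes was 2216 and 1268 in fibroblasts (1353 and 2111 without), 905 and 567 in cluster 29 (649 and 866 without), 908 and 576 in cluster 8 (713 and 732), 492 and 391 in hair germ (379 and 505), 487 and 381 in cluster 2 (379 and 513) and 669 and 504 in IRS (528 and 668). With the median set to 0 it was 198 and 236 in dermal sheath (261 and 185), and with DESeq2 factors 516 and 720 in unnamed cells (638 and 586). The cause of these shifts was not tested. No paired analysis was possible because each group is 1 library and the labels carry no replicate numbers. Chondrocytes and T-cells had 36 PBS cells each, which limits the precision of their ratios.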
